A study of Mus musculus with 26 samples.

Results

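The nuclear genes for mitochondrial ribosomal proteins were followed in mouse left ventricle, in hearts with and without Mst-1 overexpression and with and without galectin-3. The set holds every gene of the count table whose symbol starts with Mrpl (large subunit) or Mrps (small subunit), pseudogene names left out. It has 76 members of 15249 genes, 47 named Mrpl and 29 named Mrps. The GENCODE M21 annotation lists 78 protein-coding genes with such names. Of the other two, Mrpl58 is in the table under its older symbol Ict1 and is described with the related genes, and Mrpl53 was not analysed here.

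RNA depleted of ribosomal RNA was sequenced in 26 left ventricle libraries on the C57BL6 background. The wt group (n = 6) was wild type, the MstTg group (n = 7) overexpressed Mst-1 and served as a model of dilated cardiomyopathy, the Gal3Ko group (n = 8) lacked Gal-3, and the Mst1Gal3 group (n = 5) carried both changes. Mst-1 is a protein kinase of the Hippo pathway encoded by Stk4, and galectin-3 is a secreted lectin encoded by Lgals3. The sources used here do not give the promoter that drives Mst-1, the deleted part of Lgals3 or the age of the mice. The labels call the libraries of a group replicates without naming separate mice, so p-values measure the spread between these libraries.

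The mitochondrial ribosome stands in the mitochondrial matrix and translates the few messenger RNAs of the mitochondrial genome, all of which encode subunits of the respiratory chain and ATP synthase. Its RNA, mt-Rnr1 in the small and mt-Rnr2 in the large subunit, is made inside the organelle, while all its proteins are encoded in the nucleus, made in the cytosol and imported. Cardiac muscle is among the tissues richest in mitochondria, and inherited defects of human MRPL3, MRPL44 and MRPS22 include cardiomyopathy.

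Library totals ran from 18580405 to 32663735 counts. Stk4 averaged 23.6 ± 1.27 CPM (the usual depth-scaled count, here with TMM factors, mean ± SD) in wt, 949 ± 74.7 in MstTg, 23.3 ± 1.83 in Gal3Ko and 977 ± 119 in Mst1Gal3. Lgals3 averaged 1.64 ± 0.495 CPM in wt, 55.2 ± 3.39 in MstTg, 2.14 ± 0.369 in Gal3Ko and 3.91 ± 1.04 in Mst1Gal3. Lgals3 was lower in Mst1Gal3 than in MstTg (log2 fold change -3.81 ± 0.13 SE), but not lower in Gal3Ko than in wt (0.41 ± 0.17, adjusted p = 0.619, edgeR), so this gene checks the knockout label only against MstTg. Genes of the mitochondrial genome took 29.2% to 35.5% of counts in wt, 14.4% to 23.3% in MstTg, 26.8% to 38.3% in Gal3Ko and 15.7% to 23.0% in Mst1Gal3. All 10 listed cardiomyocyte markers were measured, and their summed level overlapped between wt (96760 to 122636 CPM) and MstTg (109344 to 128778 CPM). Taken singly, 8 of these markers were called lower in MstTg and 2 higher. In 6 libraries the atrial genes Myl7, Myl4 and Sln together exceeded 30 CPM, up to 127 CPM, and these were wt replicate 5, MstTg replicate 5, Gal3Ko replicates 4, 5 and 8 and Mst1Gal3 replicate 3.

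The members are spread over 17 chromosomes, and some short promoter strings were more frequent among them than among all genes with a window. A RefSeq window (GRCm38.p6), from 250 bases before to 50 bases after the annotated start, was available for 67 of the 76. Both strands were searched for the core of the site bound by ETS factors such as GABP (CCGGAAG), the core of the YY1 site (AAGATGGC) and a stretch of the NRF1 site (GCATGCGC), strings tied in background knowledge to nuclear genes for mitochondria. A gene was counted if any of its windows held the string, and 3 members had more than 1 window. The ETS core was present in 24 of 67 members (35.8%) against 9.93% of 27025 genes. The YY1 core was present in 12 (17.9% against 3.19%) and the NRF1 stretch in 8 (11.9% against 3.05%). At least 1 of them was in 36 members, 53.7% against 14.9% of all genes, while TATAAA was in 7.46% of members against 15.7%. GGGCGG was in 50.7% against 38.2%, and CCAAT in 38.8% against 41.1%. The 27025 genes were not limited to those of the count table, so genes not measured in these hearts enter the background shares. The NRF1 stretch was taken after a longer form of that site had been searched. Overlaps between the letter strings were not removed, and a match is a description of the letters only. The 80 bases before the start are shown for all 6 members with the ETS core, in capitals, in those bases and no GENCODE exon there. Their order follows the log2 fold change, from a strong fall with Mst-1 (Mrps27) to none that was called (Mrpl48, Mrpl52). They are Mrps27 (chr13:99344706-99344785, plus strand), Mrpl34 (chr8:71464846-71464925, plus), Mrps22 (chr9:98601680-98601759, minus), Mrpl43 (chr19:45006443-45006522, minus), Mrpl48 (chr7:100583131-100583210, minus) and Mrpl52 (chr14:54426829-54426908, plus), each printed 5′ to 3′ on the strand of its gene. None of these stretches overlaps a GENCODE M21 exon. The RefSeq start of Mrpl48 lies inside the longer gene that GENCODE M21 gives (chr7:100545751-100608301), so its stretch is before an internal start of that gene.
Mrps27: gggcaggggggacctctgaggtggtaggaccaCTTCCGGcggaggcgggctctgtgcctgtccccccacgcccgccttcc
Mrpl34: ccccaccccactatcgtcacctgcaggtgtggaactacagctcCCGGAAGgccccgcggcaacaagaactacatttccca
Mrps22: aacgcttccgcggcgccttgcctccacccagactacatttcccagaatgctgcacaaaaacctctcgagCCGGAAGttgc
Mrpl43: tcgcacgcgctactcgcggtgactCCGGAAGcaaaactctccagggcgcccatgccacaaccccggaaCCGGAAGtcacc
Mrpl48: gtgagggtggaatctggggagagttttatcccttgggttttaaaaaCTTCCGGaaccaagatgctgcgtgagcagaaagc
Mrpl52: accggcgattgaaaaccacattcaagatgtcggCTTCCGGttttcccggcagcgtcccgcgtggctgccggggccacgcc
The core reads CTTCCGG where it lies on the other strand, as in Mrps27, Mrpl48 and Mrpl52, and Mrpl43 holds it at 2 places, 56 and 12 bases before the start. The MstTg minus wt log2 fold changes of these genes, in the order printed, were -1.03, -0.77, -0.67, -0.35, -0.02 and 0.06. Over the 67 members the median log2 fold change was -0.48 with the ETS core and -0.68 without it, so members with the core had the smaller median fall. The medians were -0.47 with and -0.64 without the NRF1 stretch, and -0.57 and -0.64 for GGGCGG. They were nearly equal for the YY1 core (-0.63 and -0.63), TATAAA (-0.63 and -0.63) and CCAAT (-0.64 and -0.63). These differences were not tested.

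In wild-type ventricle all 76 members were measured, and no count was under 37 in any of the 26 libraries. Their mean level in wt ran from 3.42 CPM for Mrpl23 to 119 CPM for Mrpl42, with a median of 25.5 CPM, and 70 members were over 10 CPM. Divided by the exonic length of the gene, the highest wt levels were 62.4 ± 3.48 CPM per kb for Mrpl12, 51.5 ± 5.31 for Mrps23 and 49.3 ± 2.68 for Mrpl28 (mean ± SD, n = 6). The lowest were 0.701 ± 0.0561 CPM per kb for Mrpl23, 1.54 ± 0.158 for Mrps10 and 2.44 ± 0.275 for Mrpl32, around a median of 10.01. Exonic length joins all annotated transcripts, so a gene with long rarely used exons comes out low on this scale. Between replicates the members were even, with a median coefficient of variation of 6.66% in wt, 8.79% in MstTg, 8.25% in Gal3Ko and 9.46% in Mst1Gal3.

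Nearly the whole set was lower with Mst-1 overexpression. In MstTg against wt, 69 of 76 members (90.8%) fell and 0 rose at an adjusted p under 0.05 (edgeR quasi-likelihood test, Benjamini-Hochberg over 15249 genes), where 55.0% of all genes were called, 26.8% lower and 28.2% higher. The median log2 fold change of the members was -0.63, with quartiles at -0.76 and -0.43, against 0.02 over all genes, and the median member stood at 64.5% of its wt level. Scaled to library totals, 57 members were called lower and 5 higher. That scaling also raised the median of all genes, and the share of all genes called under it is not given here. In 60 of 76 members (78.9%) every MstTg library was below every wt library, against 16.2% of all genes, and in 0 every one was above, against 15.9%. The summed level of the members was 2115 CPM in the lowest, 2263 in the median and 2318 in the highest wt library, and 1318, 1440 and 1593 CPM in MstTg. The groups did not overlap, and the share of all counts in the members also separated, at 0.200% to 0.221% in wt and 0.146% to 0.174% in MstTg. In bulk tissue, fewer cardiomyocytes and less RNA per cell cannot be told apart. Fibroblast markers moved with this change, with 9 of 10 higher and a summed level of 1537 to 2168 CPM in wt and 3888 to 4751 CPM in MstTg, and 8 of 10 endothelial markers fell, from 1027 to 1207 CPM down to 741 to 873 CPM. Of 10 cardiomyocyte markers 8 fell and 2 rose, with a median log2 fold change of -0.53 beside -0.63 for the members. The part of cell makeup in the result was not tested.

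**Figure D1:**
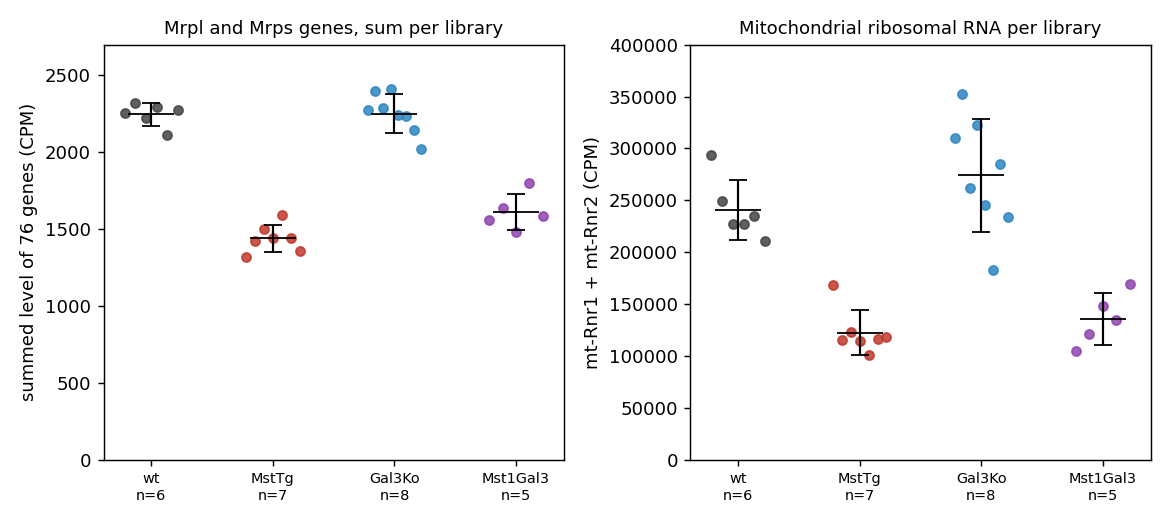
Summed level of the 76 Mrpl and Mrps genes (left, CPM) and of the mitochondrial ribosomal RNAs mt-Rnr1 and mt-Rnr2 (right, CPM) in each library by group. Points are libraries, and bars are the group mean with its SD. The 7 MstTg libraries sit between 1318 and 1593 CPM for the protein genes, below all 6 wt libraries.

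Members of both subunits fell. Of the 47 Mrpl genes 43 fell, with a median log2 fold change of -0.65, and of the 29 Mrps genes 26 fell, with a median of -0.60. Grouped by class, 28 of 29 large-subunit proteins with relatives in bacteria fell (median -0.63), as did 16 of 19 large-subunit proteins classed as mitochondria-specific (-0.65). In the small subunit, 14 of 16 bacterial-type proteins (-0.57) and 9 of 10 classed as mitochondria-specific (-0.59) fell. Mrps18a and Mrps18b are counted in the mitochondria-specific classes, although their paralog Mrps18c is in the bacterial-type class. The differences between these classes were not tested.

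Mrpl28, a large-subunit protein with a bacterial relative (ENSMUSG00000024181, chr17:26123500-26126613 in GRCm38), had the lowest log2 fold change of the set. Its level was 63.8 CPM in the lowest, 67.7 in the median and 73.2 in the highest wt library, and 20.2, 27.1 and 33.9 CPM in MstTg. All MstTg libraries lay below all wt libraries, and MstTg held 39.8% of the wt mean (log2 fold change -1.33 ± 0.09 SE, adjusted p = 5.15e-14, edgeR). Mrpl14, a conserved protein on the face of the large subunit that meets the small one, was at 24.4, 29.7 and 36.3 CPM in wt and 10.03, 13.2 and 17.1 CPM in MstTg, again without overlap (-1.16 ± 0.10). Mrpl45, which lies near the exit tunnel and ties the ribosome to the inner membrane, was at 36.0, 40.4 and 41.2 CPM in wt and 16.6, 17.5 and 19.8 CPM in MstTg (-1.13 ± 0.06). The wt and MstTg libraries of Mrpl45 were each closely grouped and far apart.

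In the small subunit, Mrps35 and Mrps27, both found only in mitochondria, led. Mrps35 (chr6:147042764-147073991) was at 43.0, 47.0 and 50.2 CPM in the lowest, median and highest wt library and at 20.5, 22.4 and 24.7 CPM in MstTg. The spread within each group was small beside the gap between them, and Mrps35 had the smallest adjusted p of the set (-1.07 ± 0.05, adjusted p = 1.09e-17, edgeR). Mrps27 was at 25.5, 27.8 and 31.8 CPM in wt and 11.8, 13.8 and 15.3 CPM in MstTg (-1.03 ± 0.07). Mrpl42, the member with the highest CPM in wt, was at 110, 119 and 131 CPM in wt and 54.2, 58.2 and 64.0 CPM in MstTg (-1.01 ± 0.07). These 6 genes, Mrpl28, Mrpl14, Mrpl45, Mrps35, Mrps27 and Mrpl42, were the 6 members that fell at least 2-fold. The next 4 were Mrpl46 (-0.99 ± 0.08), Mrps28 (-0.97 ± 0.10), Mrpl50 (-0.88 ± 0.08) and Mrps31 (-0.87 ± 0.06).

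The stalk of the large subunit recruits translation factors and is built from Mrpl10, Mrpl11 and Mrpl12, and Mrpl12 is also known to bind the mitochondrial RNA polymerase. Mrpl12 (chr11:120484613-120489065) was at 88.4, 95.3 and 104 CPM in the lowest, median and highest wt library and at 44.3, 57.9 and 66.2 CPM in MstTg (-0.74 ± 0.08, adjusted p = 9.23e-10, edgeR). The MstTg libraries were all lower but more scattered than those of Mrps35. Mrpl10 (-0.48 ± 0.06, adjusted p = 1.28e-07) and Mrpl11 (-0.44 ± 0.06, adjusted p = 4.58e-07) also fell. The counterparts of the human disease genes fell too, with Mrpl3 at -0.61 ± 0.07, Mrpl44, a relative of RNase III in the large subunit, at -0.68 ± 0.07, and Mrps22 at -0.67 ± 0.08. Of the Mrps18 paralogs, Mrps18a, whose protein sits in the large subunit, was at -0.64 ± 0.07, Mrps18c at -0.50 ± 0.09 and Mrps18b at -0.29 ± 0.08 (adjusted p = 0.00161), and the differences between them were not tested. Mrps30, also a large-subunit protein in spite of its name, fell by 0.64 on the log2 scale. Mrps34 was at -0.40 ± 0.09. Mrps36, now known as a part of the 2-oxoglutarate dehydrogenase complex rather than of the ribosome, was at -0.71 ± 0.15 with the thin level of 3.66 ± 0.411 CPM in wt. Mrps16 fell (-0.55 ± 0.08), as did Mrps23 (-0.45 ± 0.07), Mrpl32 (-0.55 ± 0.08) and Mrpl23 (-0.31 ± 0.12, adjusted p = 0.0300), whose call was lost without wt replicate 2 or 3 or MstTg replicate 1 or 2. With library totals the calls of Mrpl23 (-0.063, adjusted p = 0.694) and Mrps34 (-0.16, adjusted p = 0.133) were lost.

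The least lowered of the called members were Mrpl27 (-0.30), Mrps18b, Mrps12 (-0.28), Mrpl17 (-0.23), Mrpl57 (-0.22), Mrpl40 (-0.21), Mrpl20 (-0.20) and Mrpl24 (-0.16, adjusted p = 0.0219). Of these, Mrpl57, Mrpl40, Mrpl20, Mrpl24 and Mrpl17 turned to between 0.01 and 0.08 when libraries were scaled to their totals, and the calls of Mrpl27 (-0.053), Mrps18b (-0.047) and Mrps12 (-0.040) were lost too. That scaling moved the median log2 fold change of all genes to 0.27. The calls of Mrpl57, Mrpl24 and Mrpl20 also rested on single libraries. Mrpl57 was lost without any 1 of wt replicates 2, 4 and 6 and MstTg replicates 1, 6 and 7, Mrpl24 without wt replicate 6 or MstTg replicate 2, and Mrpl20 without MstTg replicate 6.

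The 7 members that were not called, named after their values were seen, were Mrps26 (-0.22, adjusted p = 0.0731), Mrpl54 (-0.15), Mrps6 (-0.08), Mrpl48 (-0.02), Mrpl52 (0.06), Mrps10 (0.13) and Mrpl33 (0.16, adjusted p = 0.0956), all from edgeR. Scaled to library totals, Mrpl48 (0.23), Mrps6 (0.17), Mrpl52 (0.31), Mrps10 (0.38) and Mrpl33 (0.41) were called higher. Without Mst1Gal3 replicate 4, which enters only through the shared spread, Mrpl33 was called at the same 0.16 (adjusted p = 0.00968), and Mrps26 was called there, without wt replicate 1 or MstTg replicate 5, and without the libraries of high atrial genes. Mrpl48, a large-subunit protein of mitochondria, was at 20.4, 23.6 and 25.5 CPM in the lowest, median and highest wt library and at 21.1, 22.8 and 24.6 CPM in MstTg, so the groups overlapped throughout. Mrps10, a relative of a bacterial small-subunit protein, was at 10.2, 12.8 and 13.6 CPM in wt and 13.0, 13.5 and 14.6 CPM in MstTg. Mrpl33, also with a bacterial relative, was at 28.8, 32.9 and 34.1 CPM in wt and 33.3, 35.1 and 39.7 CPM in MstTg. Mrps10 sat at the upper end of its wt range or just above it. The groups of Mrpl33 overlapped, but its median MstTg library (35.1 CPM) lay above its highest wt library (34.1 CPM). Exons of Mrpl33 overlap those of Gm43809 on the same strand, and Mrpl48 shares 708 exonic bases with Rab6a on the other strand.

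**Figure D2:**
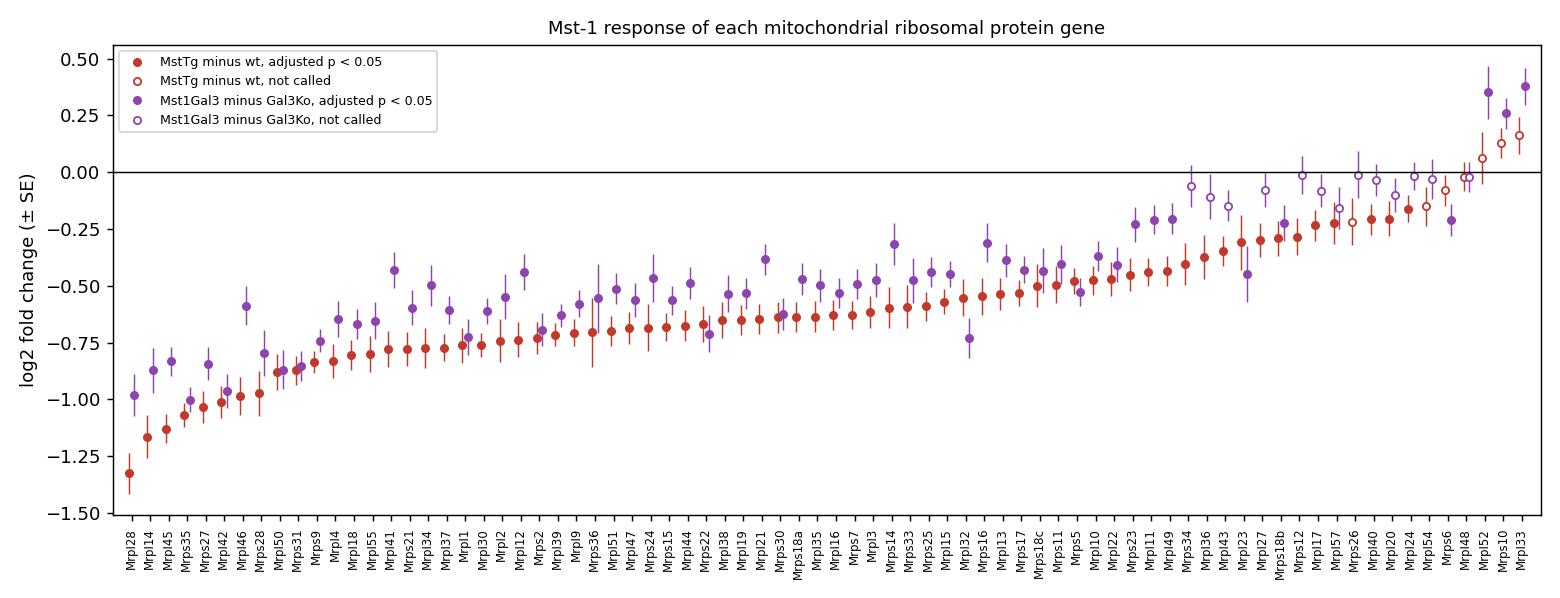
Log2 fold change with its SE for each of the 76 genes, ordered by MstTg minus wt (red), with Mst1Gal3 minus Gal3Ko beside it (purple). Filled points passed an adjusted p of 0.05 and open points did not. The red points run from -1.33 for Mrpl28 to 0.16 for Mrpl33, and 69 of them are filled, all below 0.

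Exons of 26 members overlap exons of a gene on the opposite strand, and the sources used here do not say whether counting used strand. Of the 45 members with no overlap of either kind, 42 fell in MstTg, with a median log2 fold change of -0.65. Among the overlapping pairs, Mrps11 (-0.50 ± 0.08) and Mrpl46 (-0.99 ± 0.08) start head to head on chromosome 7 and share 173 exonic bases. Mrpl43 (-0.35 ± 0.07) shares 507 bases with Twnk, the mitochondrial DNA helicase listed in the table as Peo1 (-0.45 ± 0.07). Reads from the shared bases cannot be assigned to one gene of such a pair without strand.

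Most of the other genes of mitochondrial translation fell with the ribosomal proteins in MstTg against wt. The 6 ribosomal proteins with other names all fell (median log2 fold change -0.54). Among them were Ptcd3, a small-subunit protein with pentatricopeptide repeats (-1.14 ± 0.07), Gadd45gip1 of the large subunit (-0.88 ± 0.08), Ict1, a peptidyl-tRNA hydrolase built into the large subunit (-0.59 ± 0.07), and Dap3 of the small subunit (-0.50 ± 0.05). All 18 translation and messenger RNA factors fell (median -0.72), led by Lrpprc, which stabilises mitochondrial messenger RNA (-1.23 ± 0.05, adjusted p = 8.2e-19, edgeR), the elongation factor Tufm (-1.08 ± 0.07), Gatb, a subunit of the amidotransferase that makes glutaminyl-tRNA (-1.07 ± 0.07), and Gfm2, which recycles ribosomes (-0.76 ± 0.05). Of 19 aminoacyl-tRNA synthetases 16 fell and 0 rose (median -0.60), with Fars2 at -0.94 ± 0.06. Of 31 genes for ribosome assembly and ribosomal RNA modification 28 fell and 0 rose (median -0.54), among them the methyltransferase Nsun4 (-0.84 ± 0.07) and Fastkd2 (-0.83 ± 0.07), which binds the large ribosomal RNA.

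The RNA partners of the proteins fell as well. mt-Rnr1 was at -0.93 ± 0.16 (adjusted p = 1.93e-05, edgeR) and mt-Rnr2 at -0.98 ± 0.13 (adjusted p = 7.52e-08). Their summed level was 211134 to 293382 CPM in wt and 100875 to 168820 CPM in MstTg, without overlap. The libraries were depleted of ribosomal RNA, so these levels are what depletion left. All 9 measured genes of 15 listed ribosomal and messenger RNAs of the mitochondrial genome fell (median -1.30). Of 95 nuclear genes for respiratory chain and ATP synthase subunits 93 fell and 0 rose (median -0.91). Among 79 cytosolic ribosomal proteins 8 fell and 5 rose (median -0.04), with Rpl3 at 0.99 ± 0.07. The difference between the mitochondrial and the cytosolic set was not tested.

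Of 11 measured genes for transcription and replication of mitochondrial DNA 8 fell (median -0.53), with the termination-factor family member Mterf2 at -1.50 ± 0.10 and the transcription factor Tfb2m at -0.72 ± 0.08. Of 13 regulators of mitochondrial gene expression 6 fell and 3 rose. Ppargc1a, a coactivator of genes for mitochondria, was at -1.07 ± 0.08 (adjusted p = 2.86e-13, edgeR), its partner Esrra at -0.52 ± 0.10, and Gabpa, the DNA-binding subunit of GABP, at -0.36 ± 0.06. Myc was at 1.18 ± 0.20. Nrf1 (0.11, adjusted p = 0.186) and Yy1 (-0.02, adjusted p = 0.771) did not pass the test.

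**Figure D3:**
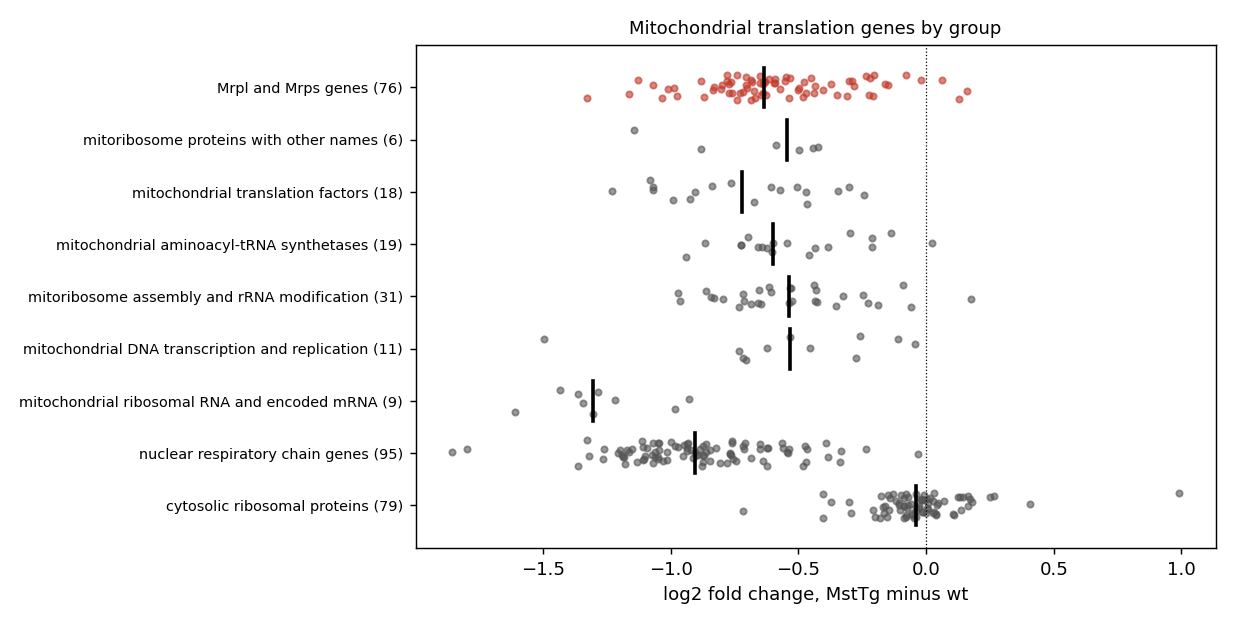
Log2 fold change of MstTg minus wt for each gene of the mitochondrial ribosomal protein set (red) and of related lists (grey), with the number of measured genes in parentheses and the list median as a black bar. The medians run from -1.30 for the RNAs of the mitochondrial genome and -0.91 for nuclear respiratory chain genes to -0.04 for cytosolic ribosomal proteins, with the set at -0.63.

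Without Mst-1 overexpression, galectin-3 knockout changed 0 of 76 members in Gal3Ko against wt, where 0.354% of all genes were called, 0.177% in each direction (edgeR). The groups overlapped in all 76, where 0.151% of all genes were fully lower and 0.138% fully higher. Also by DESeq2 and by limma-voom the count was 0. At an unadjusted p under 0.05 there were 2 members, Mrps5 (0.14 ± 0.06) and Mrpl39 (0.10 ± 0.05). The members ran from -0.15 (Mrpl28) to 0.23 (Mrpl23), with a median of 0.01 and a median SE of 0.07, so small changes were not detectable. The summed level was 2023 CPM in the lowest, 2258 in the median and 2408 in the highest Gal3Ko library, which covers the wt range.

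With galectin-3 knocked out in both groups, the set was again lower with Mst-1 overexpression. In Mst1Gal3 against Gal3Ko 60 members fell and 3 rose, 82.9% called where 52.5% of all genes were called, 25.6% lower and 26.9% higher (edgeR). Scaled to library totals, which again raised the median of all genes, 44 were called lower and 8 higher. The share of all genes called under that scaling is not given here. The median log2 fold change was -0.48, against 0.01 over all genes. In 42 of 76 members (55.3%) every Mst1Gal3 library was below every Gal3Ko library, against 14.5% of all genes, and in 1 (1.32%) every one was above, against 16.5%. The members summed to 1558, 1635, 1483, 1801 and 1586 CPM in the 5 Mst1Gal3 libraries. All 5 lay below the lowest Gal3Ko library at 2023 CPM, and replicate 4 was the highest of them. Cell type markers moved here as well. Fibroblast markers were higher in 10 of 10, with a summed level of 1523 to 1891 CPM in Gal3Ko and 3826 to 4298 CPM in Mst1Gal3, and 8 of 10 endothelial markers were lower. Of the cardiomyocyte markers 7 fell and 2 rose, with overlapping sums of 113792 to 137906 and 118799 to 140268 CPM. The median log2 fold change of the cardiomyocyte markers was -0.46, beside -0.48 for the members. The part of cell makeup in this result was not tested.

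This comparison shares no library with MstTg against wt, and the members can be set side by side in both. A total of 59 members fell in both, 85.5% of those lower in MstTg and 98.3% of those lower in Mst1Gal3. Pearson's r of the log2 fold changes over the 76 members was 0.93, as a description across genes, which are not independent. In 70 of the 76 the value was higher (a smaller fall or a larger gain) in Mst1Gal3 against Gal3Ko.

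Mrps35 was at 46.1, 49.1 and 52.7 CPM in the lowest, median and highest Gal3Ko library and at 23.5, 26.6, 22.8, 25.7 and 24.8 CPM in Mst1Gal3 (-1.001 ± 0.05, adjusted p = 2.45e-16, edgeR). The groups were far apart and each was narrow. Mrpl28 was at 54.0, 61.7 and 66.2 CPM in Gal3Ko and at 31.3, 29.8, 25.4, 40.6 and 28.2 CPM in Mst1Gal3 (-0.98 ± 0.09). Mrpl42 (-0.96 ± 0.07), Mrps31 (-0.85 ± 0.07), Mrps27 (-0.84 ± 0.07), Mrpl45 (-0.83 ± 0.07), Mrps9 (-0.74 ± 0.05), Mrpl39 (-0.63 ± 0.05) and Mrpl30 (-0.61 ± 0.06) also fell, and Mrps34 did not pass the test (-0.06 ± 0.09, adjusted p = 0.616). Mrpl32 was at -0.73 ± 0.09 here.

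The 3 members that rose in Mst1Gal3 against Gal3Ko were Mrpl33, Mrps10 and Mrpl52, named after their values were seen and all among the 7 not called in MstTg. Mrpl33 was at 32.6, 33.9 and 37.1 CPM in the lowest, median and highest Gal3Ko library and at 40.0, 40.0, 37.6, 63.4 and 43.3 CPM in Mst1Gal3. All Mst1Gal3 libraries were higher, by little except in replicate 4 (0.38 ± 0.08, adjusted p = 0.000258, edgeR), and without replicate 4 the log2 fold change was 0.22 (adjusted p = 0.00171). Mrps10 was at 11.7, 12.9 and 14.04 CPM in Gal3Ko and at 16.9, 14.5, 13.7, 17.1 and 15.1 CPM in Mst1Gal3, where replicate 3 lay inside the Gal3Ko range (0.26 ± 0.07, adjusted p = 0.00172). Mrpl52 was at 9.28, 11.01 and 12.1 CPM in Gal3Ko and at 12.01, 11.2, 13.8, 20.7 and 10.9 CPM in Mst1Gal3 (0.35 ± 0.12, adjusted p = 0.0116). Its call rested on replicate 4, without which the log2 fold change was 0.16 (adjusted p = 0.169), and it was also lost without the libraries of high atrial genes (adjusted p = 0.0610).

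**Figure D4:**
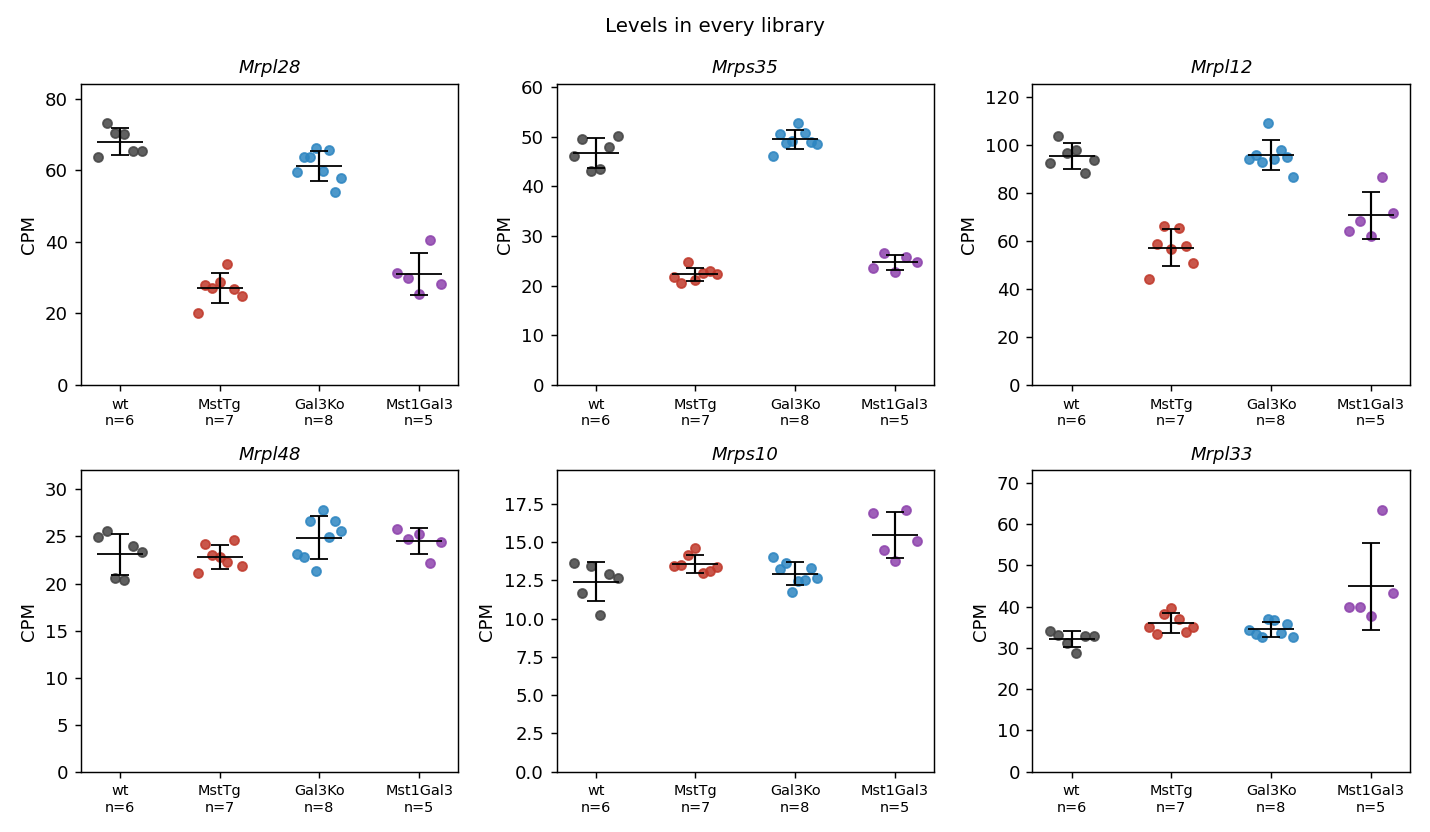
Level in CPM of 6 genes in each library by group, with the group mean and SD. Mrpl28, Mrps35 and Mrpl12 are lower in both groups with Mst-1 overexpression, the groups overlap for Mrpl48 at about 20.4 to 27.8 CPM, and Mrps10 and Mrpl33 are highest in Mst1Gal3, where 1 library holds 63.4 CPM of Mrpl33.

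With Mst-1 overexpressed in both groups, most members had slightly higher estimates where galectin-3 was knocked out. This comparison shares its libraries with the comparisons above. In Mst1Gal3 against MstTg 5 members rose and 0 fell, 6.58% of the set where 4.89% of all genes were called, 2.54% higher and 2.35% lower (edgeR). The share called higher is above the 2.54% background by few genes. The estimate was above 0 in 74 of 76 members, with a median log2 fold change of 0.16 against 0.02 over all genes. An unadjusted p under 0.05 was reached by 40 members. The share of all genes at that cut was not taken, here or in the other comparisons. Members varied together across libraries, as described below, so these counts are not of independent genes. With library totals the median was 0.08 against -0.06 over all genes, and 10 estimates were below 0. Cardiomyocyte markers moved with the members, with 10 of 10 estimates above 0, a median of 0.14 and 2 called higher, and their part in the result was not tested. No member separated the groups fully, where 1.31% of all genes did so upward and 2.0% downward. The sums were 1483 to 1801 CPM in Mst1Gal3 and 1318 to 1593 CPM in MstTg, which overlap, and both stayed below wt.

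The 5 were Mrpl41, Mrpl12, Mrpl33, Mrpl39 and Mrpl46. Mrpl41, a large-subunit protein found only in mitochondria (chr2:24974117-24975098), was at 12.6, 16.6 and 18.3 CPM in the lowest, median and highest MstTg library and at 18.6, 19.0, 18.2, 21.96 and 19.8 CPM in Mst1Gal3, with 25.3 to 28.1 CPM in wt. A single Mst1Gal3 library, replicate 3, fell inside the MstTg range (0.31 ± 0.08, adjusted p = 0.0201, edgeR). Mrpl12 was at 64.2, 68.5, 62.3, 86.8 and 71.9 CPM in Mst1Gal3 against 44.3 to 66.2 CPM in MstTg (0.30 ± 0.08, adjusted p = 0.0221). Mrpl33 rose by 0.32 ± 0.08 (adjusted p = 0.0230) and is the one of the 5 that had not fallen in MstTg against wt. Mrpl39, a relative of threonyl-tRNA synthetase, was at 24.3, 26.7, 25.5, 24.1 and 26.4 CPM against 20.3 to 24.2 CPM (0.18 ± 0.05, adjusted p = 0.0363). Mrpl46 was at 10.6, 9.56, 8.33, 12.9 and 10.9 CPM against 7.59 to 9.82 CPM (0.30 ± 0.09, adjusted p = 0.0448). Without Mst1Gal3 replicate 4 the count fell to 2, with Mrpl41 (adjusted p = 0.0840), Mrpl12 (0.130), Mrpl33 (0.147, at a log2 fold change of 0.16) and Mrpl46 (0.212) lost, without MstTg replicate 2 it was also 2, and without MstTg replicate 5 it was 13. Without Mst1Gal3 replicate 3 it was 8, and without the 6 libraries of high atrial genes 22. Those 6 include the MstTg library with the highest member sum (replicate 5, 1593 CPM). They also include the Mst1Gal3 library with the lowest (replicate 3, 1483 CPM). Mrpl33 was also lost without MstTg replicate 2. Mrpl39 was lost without MstTg replicate 1, 2, 3, 4 or 6 or Mst1Gal3 replicate 2, 3 or 5, and Mrpl46 without wt replicate 3 or 6, MstTg replicate 1, 2, 3, 4 or 6, Gal3Ko replicate 1 or 3, or Mst1Gal3 replicate 1 or 5. Scaled to library totals the count was 0. The shares of all genes called under these settings are not given here.

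**Figure D5:**
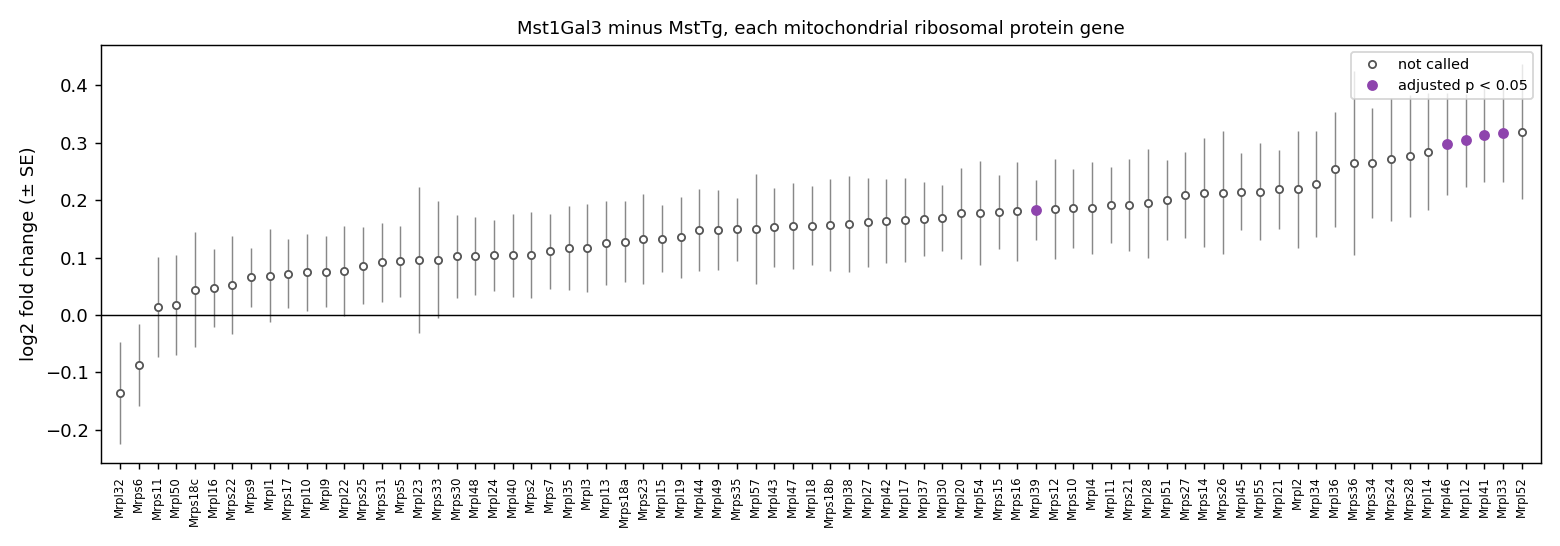
Log2 fold change with its SE of Mst1Gal3 minus MstTg for each of the 76 genes, in rising order. Filled points passed an adjusted p of 0.05. Of the points 74 lie above 0, none exceeds 0.32, and 5 are filled.

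Related lists leaned the same way in Mst1Gal3 against MstTg, where 2.54% of all genes were called higher. The lean was not limited to mitochondrial genes. Of 79 cytosolic ribosomal proteins 12 had an estimate below 0 and 0 were called (median log2 fold change 0.08, against 0.02 over all genes). Of 95 nuclear respiratory chain genes 27 rose and 0 fell (median log2 fold change 0.21). Of 18 translation factors 1 rose (median 0.12), of 19 synthetases 1 rose, Tars2 (0.29 ± 0.07), and of 31 assembly genes 1 rose, Mettl17 (0.49 ± 0.09), these names being chosen after their values were seen. Mettl17, an assembly factor of the small subunit, also rose in Gal3Ko against wt (0.50 ± 0.09, adjusted p = 0.00176, edgeR). It lies on chromosome 14, as does Lgals3. The 3 members on that chromosome, Mrps16, Mrpl52 and Mrpl57, lie 27.0, 7.04 and 10.4 Mb from Lgals3. They were at -0.06 ± 0.08, 0.03 ± 0.11 and 0.08 ± 0.09 in Gal3Ko against wt, and none was called.

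Whether the knockout altered the Mst-1 response was tested directly as an interaction, and 0 of 76 members passed (edgeR), where 0.656% of all genes were called, 0.289% higher and 0.367% lower. The count was 0 by DESeq2 and by limma-voom too, and 16 members had an unadjusted p under 0.05. The median interaction was 0.14 on the log2 scale against 0.01 over all genes, with a median SE of 0.10. The estimate was above 0 in 70 of 76. This repeats the 70 counted above, since the interaction is the difference between the Mst-1 responses with and without galectin-3. The smallest adjusted p, 0.126, belonged to Mrpl46 (0.40 ± 0.12), which was called without Mst1Gal3 replicate 3 (0.47, adjusted p = 0.0436) and without the libraries of high atrial genes (0.53, adjusted p = 0.0297).

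After group means were removed, the members still varied together across the 26 libraries. The median correlation of a member with the mean of the other members was 0.59, highest for Mrpl55 (0.90), Mrpl12 (0.88) and Mrps34 (0.88), and lowest for Mrpl48 (-0.26) and Mrpl32 (-0.04). The points share library depth and scaling, and the correlations are descriptions only.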

How the data were processed

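Total RNA for 26 left ventricle libraries was depleted of ribosomal RNA and made into directional libraries, per the labels' protocols. The authors deposited raw counts per gene for GRCm38; STAR, featureCounts and bcl2fastq 2.19.1.403 are named in the submitters' processing notes. The sources used here do not give the strand setting, the other versions or the treatment of reads that match several places, such as processed pseudogenes. The table holds genes with a mean count of at least 10.

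The deposited counts of all 26 libraries entered 1 fit of edgeR 4.0.16 (R 4.3.3) with TMM factors, filterByExpr (0 genes removed of 15249), a robust quasi-likelihood fit with 22 residual degrees of freedom and a two-sided test, Benjamini-Hochberg adjusted over all genes at 0.05. SE is the log2 fold change over the root of the F statistic. At the smallest total, 1 count is 0.0538 CPM. Positions, overlaps and exonic lengths came from GENCODE M21, promoter windows from RefSeq. The code was tested on simulated counts. Alternatives were DESeq2 1.42.0, limma-voom 3.58.1, other scalings and filters, a replicate block, and libraries left out.

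The members, lists and tests were chosen with earlier results of these data known. Named members are the 10 lowest and 8 least lowered called in MstTg against wt, up to 8 called in each other comparison, a fixed list by role or chromosome 14, and the 3 highest and 3 lowest per kb; of other lists, up to 4 genes with the smallest p.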

Additional observations from a re-analysis of the deposited data

Results flagged for a closer look

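In the groups of the 44 named members, 176 in all, 10 had 1 library set apart from the rest by a gap large beside the group's range (Dixon's criterion), where chance gives about 1 in 20. Mst1Gal3 replicate 4 held 63.4 CPM of Mrpl33 against 37.6 to 43.3 CPM in the others, 33.7 CPM of Mrpl24 against 26.4 to 27.1, and 22.003 CPM of Mrps26 against 13.6 to 15.1. MstTg replicate 5 held 18.7 CPM of Mrpl11 against 15.5 to 16.5, and 15.8 CPM of Mrps16 against 12.6 to 13.5. Replicate 5 of wt was low, with 29.4 CPM of Mrpl50 against 36.6 to 40.7 and 16.5 CPM of Mrps16 against 19.7 to 21.4. Replicate 1 of wt held 14.003 CPM of Mrps26 against 16.2 to 17.2, replicate 2 held 16.5 CPM of Mrps28 against 12.2 to 13.7, and replicate 6 held 2.90 CPM of Mrps36 against 3.60 to 4.02.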

How the results depend on the processing

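Scaling to library totals moved the median log2 fold change of the members to -0.39 in MstTg against wt and to -0.24 in Mst1Gal3 against Gal3Ko, with 62 and 52 called, while the medians of all genes moved to 0.27 and 0.24. It changed the sign of 9 and 18 members. Among the named members called under either scaling these were Mrpl24 (0.083), Mrpl57 (0.020), Mrpl40 (0.040), Mrpl20 (0.042), Mrpl48 (0.23), Mrpl17 (0.011) and Mrps6 (0.17) in the first, and Mrpl24 (0.22), Mrpl40 (0.21), Mrps23 (0.0091), Mrps18b (0.012), Mrpl11 (0.025), Mrpl48 (0.21), Mrpl54 (0.20), Mrps6 (0.026) and Mrps12 (0.22) in the second. With the mitochondrially encoded genes left out, 0 and 2 members changed sign in these comparisons. The call of Mrpl57 in MstTg against wt was lost there (adjusted p = 0.0577, edgeR). Outside the mitochondrial genome, the members took 0.290% to 0.322% of counts in wt and 0.190% to 0.205% in MstTg. What caused the shifts between scalings was not tested. With 1 library left out, 67 to 71 members were called in MstTg against wt (median -0.66 to -0.61), 0 in Gal3Ko against wt (-0.01 to 0.02), 2 to 13 in Mst1Gal3 against MstTg (0.11 to 0.18), 62 to 64 in Mst1Gal3 against Gal3Ko (-0.51 to -0.45) and 0 to 1 in the interaction (0.10 to 0.17). The 5 calls of Mst1Gal3 against MstTg were 3 with DESeq2 size factors, 0 with library totals, 1 with the groups compared alone and 22 without the 6 libraries of high atrial genes. The last setting gave 1 interaction call. The labels do not say whether replicate numbers pair the libraries. Over 34 same-numbered pairs, correlations of deviations ran from -0.28 to 0.23, 11 above 0.1, and 7 libraries correlated best with their own number. The values for unpaired libraries were not set beside these, so the check cannot exclude pairing. With the replicate block the calls were 69, 0, 4, 65 and 0 in the order above. The shares of all genes called under the settings of this section are not given here. A changed count of members can therefore not be told from a change over all genes. The lowest count of a member in a library was 37, and depth was not varied.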
